A study of Rattus norvegicus with 6 samples.

Results

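Interferon response genes are the genes that a cell switches on when an interferon binds its receptor. The group described here was taken by name and held 33 rat genes: 23 antiviral genes best known as targets of type I interferons, 7 genes best known as targets of interferon gamma, and 3 genes of antigen processing. Probes were found for 31 of the 33 through their transcript accessions, since none matched Xaf1 or Herc6, and 30 were tested among 31087 genes. The remaining gene, Ifit1, had 1 probe, which none of the 6 arrays read well above background. RNA came from renal cortex, taken from male rats of the Sprague-Dawley strain (Crl:CD(SD)) that were bought at 5 weeks of age and kept on a basal diet. The 3 control animals (labelled VC) were given water for 4 weeks, and the other 3 were given o-anisidine hydrochloride, an aromatic amine, at 700 mg/kg/day for the same 4 weeks. Each animal's RNA was labelled with Cy3 and hybridised to 1 single-colour Agilent array, and the series set out to describe expression changes that the compound brings about in this tissue.

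Type I interferons signal through the kinases Jak1 and Tyk2 to a complex that holds Stat2 and Irf9 and binds the interferon-stimulated response element (ISRE) near antiviral genes. Interferon gamma signals through Jak1 and Jak2 and acts at the gamma-activated site (GAS) near genes for chemokines, guanylate-binding proteins and antigen processing. The same targets have basal expression in healthy tissue, at a level that differs between genes. In the kidney they are known from viral infection and lupus nephritis, where both tubule cells and immune cells express them.

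Of 61657 probes, 41670 to 43630 per array were well above background and none was saturated. Each group had only 3 arrays. The 3 control arrays and o-anisidine 3 shared a slide and a scan session, while o-anisidine 1 and 2 were on another slide in another session. The deposited value table holds the same arrays under replicate numbers that are shifted within each group, and the numbers used here are those of the scanner files. All 7 proximal tubule markers were measured (summed signal 1950 to 2240 times the array's 75th percentile in controls and 1840 to 2370 after o-anisidine).

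No interferon response gene passed the test between the groups, and most of them had slightly lower values after o-anisidine. With limma over all genes and Benjamini-Hochberg adjustment, 0 of 30 members were past an adjusted p of 0.05, where 0.0611% of all genes were, 0.0354% higher and 0.0257% lower. At an unadjusted p under 0.05, 5 members were lower and 1 was higher, that is 16.7% and 3.33%, beside 5.14% and 6.36% of all genes. The 3 arrays of one group lay entirely below or above those of the other for 7 members. Usp18, Isg15, Mx1, Dhx58 and Gbp5 were lower without overlap (16.7% of members, against 8.88% of all genes), and Cxcl11 and Oas1b were higher without overlap (6.67%, against 9.55%). The log2 change was below 0 for 25 of 30 members (83.3%) and for 49.1% of all genes. Its median was -0.21 over the members and 0.0037 over all genes.

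**Figure D1:**
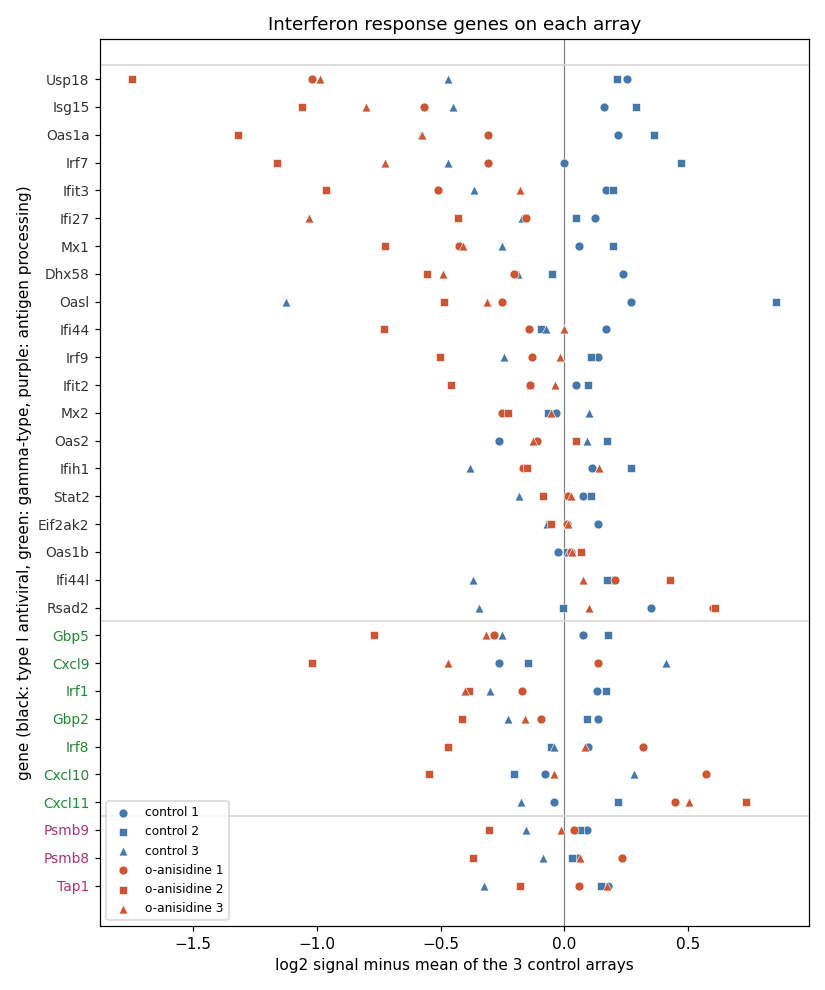
Log2 signal of each of the 30 tested members on each of the 6 arrays, as the difference from the mean of the 3 control arrays (horizontal axis, log2), by gene (vertical axis) and role. Usp18 has the widest separation, with all o-anisidine arrays left of all controls, and Cxcl11 lies to the right on all o-anisidine arrays, while for 23 of the 30 genes the groups overlap.

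Promoter sequence was at hand for 26 of the 33 members (RefSeq, assembly GRCr8, 250 bases before to 50 after each start), and it shows which of the response elements the list shares. The ISRE core was searched as GAAANNGAAA on both strands and the GAS as TTCNNNGAA, which reads the same on both. The ISRE core was in 16 of 26 member promoters (61.5%) and in 3.92% of 33469 promoters, and the GAS in 9 of 26 (34.6%) and in 8.87%. By role, the ISRE core was in 11 of 16 type I antiviral, 3 of 7 gamma-type and 2 of 3 antigen processing promoters, and the GAS in 4 of 16, 4 of 7 and 1 of 3. A match describes letters and not a bound site. Isg15, Ifit1, Ifit2, Mx2, Oas2, Usp18 and Dhx58 are not among the 26, and the Mx1 promoter held neither motif. The 7 windows below are shown because of their genes' results further on: the paralogues Oas1a and Oas1b, Irf7 and Rsad2 with the same 10 letters, and Irf1, Gbp5 and Cxcl11 of the gamma-type genes. Each reads 5′ to 3′ on the gene's strand with the matched letters in capitals.
Oas1a: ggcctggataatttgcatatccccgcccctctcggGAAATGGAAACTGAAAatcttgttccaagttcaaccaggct
Oas1b: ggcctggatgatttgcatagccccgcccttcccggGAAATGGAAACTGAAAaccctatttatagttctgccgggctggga
Irf7: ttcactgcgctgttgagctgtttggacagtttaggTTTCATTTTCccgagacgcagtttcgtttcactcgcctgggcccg
Rsad2: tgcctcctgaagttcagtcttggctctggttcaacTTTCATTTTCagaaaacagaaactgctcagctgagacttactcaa
Irf1: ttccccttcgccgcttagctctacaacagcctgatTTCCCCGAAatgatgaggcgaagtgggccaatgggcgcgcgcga
Gbp5: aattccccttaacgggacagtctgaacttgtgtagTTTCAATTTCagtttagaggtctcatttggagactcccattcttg
Cxcl11: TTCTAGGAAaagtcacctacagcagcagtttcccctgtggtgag

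The Oas1a window is chr12:41330390-41330465 on the plus strand, with overlapping ISRE cores that begin 41 and 35 bases before the start, and the Oas1b window is chr12:41395867-41395946 on the minus strand, with cores 59 and 53 bases before it. The Irf7 window is chr1:205800048-205800127 (minus strand, core 69 bases before the start) and the Rsad2 window chr6:48788223-48788302 (minus strand, 147 bases). The Irf1 window is chr10:38417758-38417836 (plus strand, GAS 142 bases before the start), the Gbp5 window chr2:233910908-233910987 (plus strand, ISRE core 56 bases) and the Cxcl11 window chr14:15973478-15973521 (plus strand, GAS 250 bases). Irf7 and Rsad2, with TTTCATTTTC in both, had log2 changes of -0.73 and 0.44, and Oas1a and Oas1b, with the same pair of ISRE cores, had -0.73 and 0.041. Ifit3 and Ifi44, with TTTCAGTTTC in both, had -0.55 and -0.29. Ifi27, which shares GAAATGGAAA with Oas1a and Oas1b, had -0.54. On the opposite strand TTTCAGTTTC is the GAAACTGAAA of Oas1a and Oas1b, and TTTCATTTTC is the GAAAATGAAA of Ifi44l (0.24). The GAS letters TTCTAGGAA were in Irf9 (-0.22), Ifi44l (0.24) and Cxcl11 (0.56). That these members lay on both sides of 0 follows from how they were picked and says nothing about the letters. None of these changes passed the test, the differences between genes were not tested, and the genes compared were chosen after their values were seen.

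Among the type I antiviral genes, Usp18 and Isg15, which act in the same protein modification, had the largest differences. Values are log2 signals relative to the array's 75th percentile, in the order of replicates 1, 2 and 3. Usp18, a protease that removes Isg15 from proteins and restrains signalling at the type I receptor, was at -2.01, -2.05 and -2.73 in controls and at -3.28, -4.01 and -3.25 after o-anisidine. All 3 o-anisidine arrays lay below all controls. The log2 change was -1.25 (SE 0.28, 2.38-fold lower) with an adjusted p of 0.207 in limma, so the smallest p among the members missed the threshold. Isg15, the ubiquitin-like protein that is attached to other proteins in this response, was at 0.83, 0.96 and 0.22 in controls and at 0.10, -0.39 and -0.13 after o-anisidine. Here too the groups did not overlap, with control 3 only 0.12 above o-anisidine 1. The log2 change was -0.81 (SE 0.23, 1.75-fold lower, limma adjusted p = 0.293).

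The transcription factors had a larger difference for Irf7 than for Irf9 and Stat2. Irf7, which amplifies the induction of type I interferon genes, was at 0.93, 1.40 and 0.46 in controls and at 0.62, -0.23 and 0.21 after o-anisidine, so control 3 lay below o-anisidine 1 and the groups overlapped. Its log2 change was -0.73 (SE 0.30, limma adjusted p = 0.436). Irf9 and Stat2, parts of the ISRE-binding complex, had log2 changes of -0.22 (SE 0.17) and -0.015 (SE 0.10). The interval of the Stat2 change ran from -0.26 to 0.23, and its groups overlapped.

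Of the sensors of viral RNA on the list, Dhx58 was lower without overlap and the others were near 0. Dhx58 (LGP2), a helicase that modulates RNA sensing, was at -1.92, -2.21 and -2.35 in controls and at -2.36, -2.72 and -2.65 after o-anisidine. The highest o-anisidine array was 0.016 below the lowest control. The log2 change was -0.42 (SE 0.15, 1.33-fold lower, limma adjusted p = 0.381). Ifih1 (MDA5), which senses long double-stranded RNA, had a log2 change of -0.059 (SE 0.19), and Eif2ak2 (PKR), the kinase that halts translation on viral RNA, of -0.0093 (SE 0.084). Both had groups that overlapped.

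The antiviral effectors spread over both directions. Mx1, a dynamin-like GTPase that blocks viral replication, was at 2.00, 2.13 and 1.69 in controls and at 1.51, 1.21 and 1.53 after o-anisidine. No o-anisidine array reached the lowest control, and the log2 change was -0.52 (SE 0.15, 1.43-fold lower, limma adjusted p = 0.301). Its paralogue Mx2 was at 6.44, 6.41 and 6.58 in controls and at 6.22, 6.25 and 6.42 after o-anisidine, where o-anisidine 3 reached into the control range. The log2 change of Mx2 was -0.18 (SE 0.089, limma adjusted p = 0.505).

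Ifi27, an interferon-induced membrane protein of mitochondria, was at 5.11, 5.04 and 4.82 in controls and at 4.83, 4.56 and 3.96 after o-anisidine. Control 3 and o-anisidine 1 met, and o-anisidine 3 was far lower than the rest. The log2 change was -0.54 (SE 0.23, 1.45-fold lower, limma adjusted p = 0.443). Ifit3, a member of the family that binds viral RNA through tetratricopeptide repeats, was at -2.38, -2.35 and -2.91 in controls and at -3.06, -3.51 and -2.72 after o-anisidine. The groups overlapped through control 3 and o-anisidine 3, and the log2 change was -0.55 (SE 0.24, limma adjusted p = 0.453). Ifit2 of the same family had -0.21 (SE 0.13), and Ifit1 was not well above background.

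The 2'-5' oligoadenylate synthetases make the messenger that activates RNase L. Oas1a was at 0.57, 0.71 and -0.23 in controls and at 0.04, -0.97 and -0.22 after o-anisidine, and its arrays overlapped widely. Its log2 change was -0.73 (SE 0.35, 1.66-fold lower, limma adjusted p = 0.481). Oas1b was at 5.78, 5.81 and 5.82 in controls and at 5.83, 5.87 and 5.83 after o-anisidine. These groups did not overlap, but by a margin of 0.012, with a log2 change of 0.041 (SE 0.063, limma adjusted p = 0.834). Oas2 had a log2 change of -0.063 (SE 0.13). Oasl, an Oas-like protein, was at -4.92, -4.33 and -6.31 in controls, of which 2 were well above background, and at -5.44, -5.67 and -5.50 after o-anisidine. Its probe was retained through the o-anisidine arrays alone. Control 3 was the lowest of its 6 arrays and control 2 the highest, and the log2 change of -0.35 had an SE of 0.48.

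Rsad2 (viperin), a radical SAM enzyme that makes a chain-terminating nucleotide, went the other way and was described in full after its values were seen. It was at 1.58, 1.23 and 0.89 in controls and at 1.83, 1.84 and 1.33 after o-anisidine. The groups overlapped through control 1 and o-anisidine 3, and the log2 change was 0.44 (SE 0.22, limma adjusted p = 0.507). Ifi44l had a log2 change of 0.24 (SE 0.18) and its neighbour Ifi44 of -0.29 (SE 0.20), both with overlapping groups. Rsad2, Ifi44l and Oas1b were the 3 type I antiviral genes with a log2 change above 0.

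Among the gamma-type genes, Cxcl11 was higher and Gbp5 lower without overlap, and neither passed the test. Cxcl11, a chemokine that draws activated T cells through the receptor Cxcr3, was at -0.46, -0.20 and -0.59 in controls and at 0.03, 0.32 and 0.08 after o-anisidine. Every o-anisidine array was above every control, and the log2 change was 0.56 (SE 0.13, 1.47-fold higher, limma adjusted p = 0.222). The other ligands of Cxcr3 did not follow it: Cxcl9 had a log2 change of -0.45 (SE 0.32, limma adjusted p = 0.632) and Cxcl10 of -0.0054 (SE 0.29, 95% interval -0.72 to 0.71). Gbp5, a guanylate-binding protein that takes part in inflammasome assembly, was at -1.61, -1.51 and -1.94 in controls and at -1.97, -2.46 and -2.01 after o-anisidine. Control 3 and o-anisidine 1 were 0.030 apart, and the log2 change was -0.46 (SE 0.18, 1.37-fold lower, limma adjusted p = 0.416).

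Irf1, the transcription factor that gamma signalling induces first, was at 2.34, 2.38 and 1.91 in controls and at 2.04, 1.83 and 1.81 after o-anisidine. Control 3 lay between o-anisidine 1 and 2, and the log2 change was -0.32 (SE 0.15, limma adjusted p = 0.472). Gbp2 had -0.22 (SE 0.14) and Irf8, a factor of myeloid cells, -0.022 (SE 0.20). The antigen processing genes were nearest to 0. Psmb9 and Psmb8, catalytic subunits of the immunoproteasome, had log2 changes of -0.094 (SE 0.12) and -0.024 (SE 0.16). Tap1, a subunit of the transporter that carries peptides to class I molecules, had 0.018 (SE 0.17). The limma adjusted p of the 3 lay between 0.803 and 0.976.

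**Figure D2:**
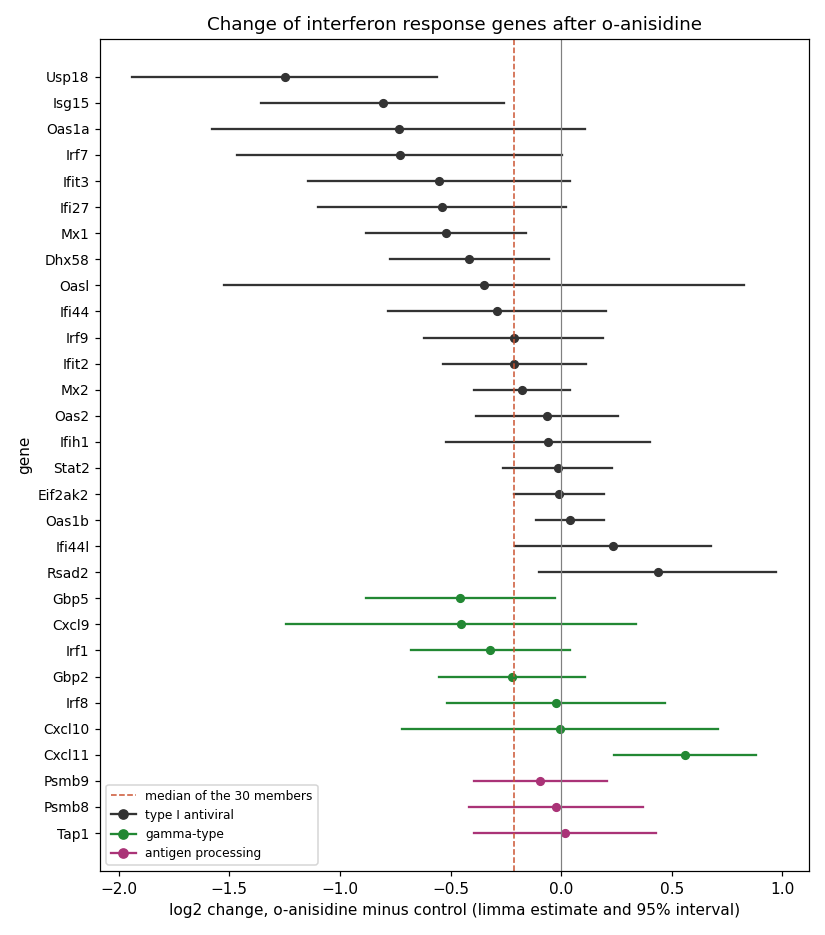
Log2 change of each tested member (o-anisidine minus control, limma estimate) with its 95% interval, by role, and the median of the 30 members as a dashed line at -0.21. The intervals of Usp18, Isg15, Mx1, Dhx58, Gbp5 and Cxcl11 lie to 1 side of 0 before adjustment, and no gene passes the adjusted threshold.

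Set against each other, the type I antiviral genes had a median log2 change of -0.25 (17 of 20 below 0) and the gamma-type and antigen processing genes together -0.059 (8 of 10 below 0). That gap came with the antigen processing genes, whose median was -0.024, since the 7 gamma-type genes alone had a median of -0.22 with 6 below 0. No difference between the subsets was tested.

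The same arrays were low for most members. Control 3 was the lowest of the controls for 23 of 30 members (76.7%) and for 35.8% of all genes. O-anisidine 2 was the lowest of its group for 21 of 30 (all genes 27.0%), and the lowest of all 6 arrays for 17 of 30 (56.7%, all genes 13.9%). As the median over members of the difference from the control mean, the controls stood at 0.12, 0.11 and -0.21 and the o-anisidine arrays at -0.13, -0.44 and -0.048. Control 3 was thus lower than o-anisidine 1 and 3, and the groups overlapped in this measure. For the gamma-type genes o-anisidine 1, at 0.13, was above all controls, and o-anisidine 2, at -0.47, was below them.

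**Figure D3:**
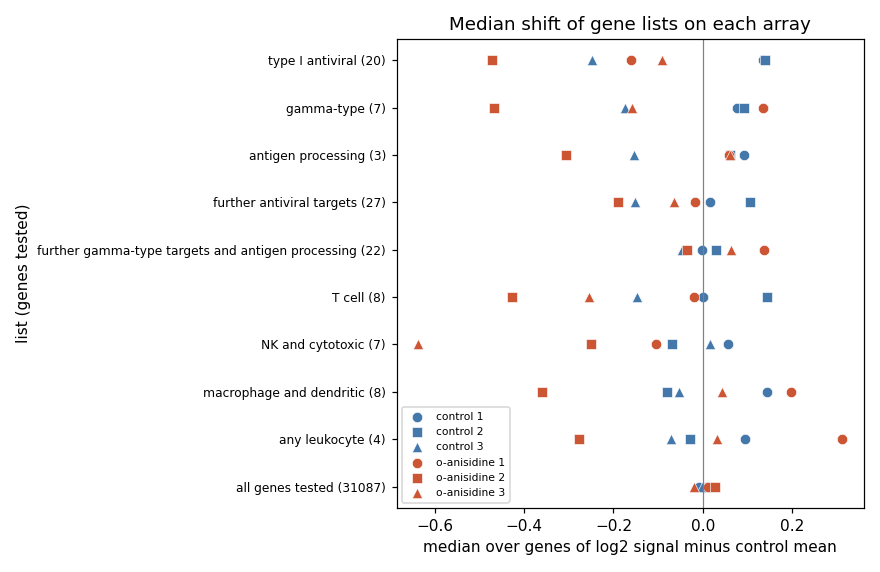
Median over the genes of a list of the log2 signal minus the control mean (horizontal axis), 1 point per array, for the member subsets, further interferon targets, leukocyte markers and all genes tested (vertical axis, number of genes in brackets). O-anisidine 2 is the lowest array for the type I antiviral (-0.47), gamma-type (-0.47) and T cell (-0.43) lists, and control 3 is below o-anisidine 1 and 3 for the type I antiviral list.

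Single arrays set much of the size of these medians. Without o-anisidine 2 the median was -0.10 over all members, -0.14 over the type I antiviral genes and 0.064 over the gamma-type and antigen processing genes together. Of the 30 members, 19 were then below 0, and the median over all genes was -0.0048. Without control 3 the last was -0.16, without o-anisidine 1 it was -0.24 and without o-anisidine 3 it was -0.10. Single genes moved too, none past the threshold. Without o-anisidine 2 the log2 change of Oas1a was -0.44, of Ifit3 -0.35, of Gbp5 -0.30, of Cxcl9 -0.17, of Gbp2 -0.13, of Ifit2 -0.089, of Irf9 -0.073, of Ifi44 -0.073 and of Ifi44l 0.14. Without o-anisidine 3 Ifi27 had -0.29, and without o-anisidine 1 Cxcl9 had -0.74. Without control 3 Rsad2 had 0.26, Ifi44l 0.051, Cxcl9 -0.25, Gbp2 -0.34 and Irf9 -0.34. The count of members lower without overlap was 16 of 30 without control 3 (53.3%, against 14.9% of all genes), 9 without o-anisidine 1 (against 12.7%) and 8 without o-anisidine 3 (against 14.7%). The count higher without overlap was 4 without control 1 (against 13.5%) and 4 without o-anisidine 3 (against 20.2%).

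Slide moved with the group for part of the arrays, so the comparison was repeated within the slide that held all controls and o-anisidine 3. The members' median log2 change there was -0.048 (20 of 30 below 0), that of the type I antiviral genes -0.090, that of the gamma-type and antigen processing genes together -0.028, and that of all genes -0.021. The share of all genes below 0 within the slide was not counted. A fit with slide as a block gave the same medians. The log2 change within the slide was further from 0 than over all arrays for Ifi27 (-1.03), Dhx58 (-0.49), Cxcl9 (-0.47) and Irf1 (-0.40). The same held for Tap1 (0.17), Oas2 (-0.13) and Cxcl10 (-0.041). It was nearer to 0 for Usp18 (-0.99), Isg15 (-0.80), Irf7 (-0.72), Oas1a (-0.57), Mx1 (-0.41), Gbp5 (-0.32) and Cxcl11 (0.50). So it was for Oasl (-0.31), Gbp2 (-0.16) and Oas1b (0.031). Values moved by over 1.5 times, away from 0, for Ifi27, Tap1, Oas2 and Cxcl10. They did so toward 0 for Ifit3 (-0.18), Rsad2 (0.10), Ifi44l (0.076), Mx2 (-0.054), Ifit2 (-0.039), Irf9 (-0.016), Psmb9 (-0.014) and Ifi44 (-0.0031). Ifih1, Irf8, Psmb8, Stat2 and Eif2ak2 changed from below 0 to above it. Within the slide 9 members were lower and 3 higher without overlap, beside 31.7% and 25.2% of all genes when 1 array is set against 3. The lone array was assumed to vary like the others, and no member passed the test there.

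Several members were measured by more than 1 probe, which gives a second reading from the same RNA. Of 15 members with several retained probes, 14 had all probes on 1 side of 0, the exception being Eif2ak2 (-0.0093 and 0.10). Usp18 had -1.25 and -1.28 on the probes that were well above background on all 6 arrays, both without overlap between groups. The 3 probes of Dhx58 had -0.42, -0.60 and -0.37, also each without overlap. A further probe of Usp18 (-1.02) and the dimmer probe of Mx1 (-1.07) were well above background on only 1 and 2 of the 3 o-anisidine arrays. Both were retained through the controls alone, which favours lower values after o-anisidine, so they add no support.

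Rsad2 was the gene whose probes differed most in size. Its dimmer probes had log2 changes of 0.52 (SE 0.18) and 1.53 (SE 0.17), against 0.44 on the brightest. The probe with 1.53 was at -5.80, -5.85 and -5.95 in controls and at -4.32, -4.03 and -4.66 after o-anisidine. The groups were more than 1 log2 unit apart on it, and its limma adjusted p over 42036 probes was 0.0844, so it too missed the threshold. Mx2 had -0.73 without overlap on its dimmer probe, against -0.18 on the brighter. In all, 14 of 49 retained member probes were lower without overlap (28.6%, against 9.6% of all retained probes) and 4 higher (8.16%, against 9.17%), and 0 passed the threshold over probes. Usp18 gave 3 of the 14, Dhx58 3 and Mx1 2, and probes of 1 gene read the same RNA, so the 14 are not separate results. They include the Usp18 and Mx1 probes that were retained through the controls alone. Of the 14, 12 were among the 46 member probes well above background on all 6 arrays. The share of all probes under that filter was not counted, so the 12 have no baseline and are not read as a result.

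**Figure D4:**
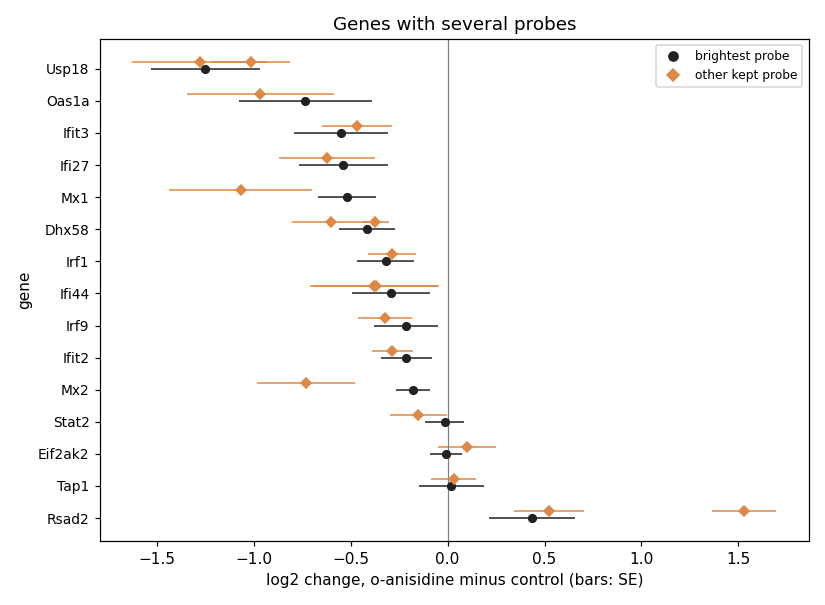
Log2 change (o-anisidine minus control, bars SE) of every retained probe of the 15 members with several, the brightest probe in black and the others in orange. Usp18 lies between -1.28 and -1.02 on its 3 probes, the last of which was well above background on 1 of 3 o-anisidine arrays, and Rsad2 is above 0 on all 3 with 1 probe at 1.53.

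Other genes of the pathway gave no call in any list. Over all genes, 8.88% were lower and 9.55% higher without overlap, and the genes named below were picked partly for lack of overlap. Of the ligands, 3 of 15 named genes were tested, and the probes of Ifnb1, Ifnk, Ifna5, Ifng and Il12b were not well above background. Il15, a cytokine that sustains NK cells, was lower without overlap (-0.13, SE 0.077). Of 6 receptors and kinases tested, the type I receptor chain Ifnar1 was lower without overlap (-0.20, SE 0.068, limma adjusted p = 0.376) and the gamma receptor chain Ifngr2 higher (0.21, SE 0.086), while Ifngr1 had 0.24 (SE 0.093). The median of that list was 0.083.

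Of 11 transcription factors and inhibitors tested (median 0.080), Stat3, which carries cytokine signals of the interleukin-6 type, was higher without overlap: 2.47, 2.60 and 2.39 in controls and 2.85, 2.82 and 2.86 after o-anisidine. Its log2 change was 0.36 (SE 0.080, limma adjusted p = 0.207). In all, 4 of the 11 were higher without overlap, Irf5 (0.32) and Pias1 (0.080) among them, and 1 was lower, Ptpn2 (-0.16). Over all genes the shares were 9.55% and 8.88%. Socs3, an inhibitor that Stat3 induces, had 0.47 (SE 0.22) with overlap. Among 8 sensors and adaptors (median 0.074), 1 was higher without overlap, Tlr7 (0.55, SE 0.19), and 1 lower, Myd88 (-0.22, SE 0.070). None was called.

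Among 27 further antiviral targets, 18 were below 0 and the median was -0.13. Bst2 (tetherin), which holds budding virus at the cell surface, was at 2.12, 2.28 and 1.91 in controls and at 1.35, 1.10 and 1.65 after o-anisidine. All o-anisidine arrays were below all controls, with a log2 change of -0.74 (SE 0.17, limma adjusted p = 0.208). Oas1k had the largest change of the list (-0.87, SE 0.37, with overlap). Of the 27, 2 were lower without overlap, Bst2 and Adar (-0.21), and 2 higher, Oas3 (0.49) and Trim25 (0.16). Over all genes the shares were 8.88% and 9.55%.

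The 22 further gamma-type and antigen processing genes had a median of 0.081, with 13 above 0. Of the 22, 3 were higher without overlap, where 9.55% of all genes were, and none was called. They were the class II genes RT1-DMa (0.47, SE 0.12, limma adjusted p = 0.245) and RT1-DMb (0.36, SE 0.12), which load peptide, and Cd74 (0.32, SE 0.14), the invariant chain. The groups overlapped for the class II chains RT1-Da (0.27), RT1-Db1 (0.44) and RT1-Bb (0.27). Ciita had -0.27, also with overlap. Vcam1, an adhesion molecule of activated vessels, was lower without overlap (-0.56, SE 0.16, limma adjusted p = 0.292). It was 1 of the 22, where 8.88% of all genes were lower without overlap. Class I heavy chains and B2m had values near 0 (RT1-A2 -0.14, RT1-CE5 -0.044, B2m -0.057).

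Markers of lymphocytes, too, mostly had log2 changes below 0. Over 8 T cell markers tested, 7 were below 0, the median was -0.28 and the summed signal was 2.16 to 2.39 times the 75th percentile in controls and 1.81 to 2.38 after o-anisidine, with the lowest value on o-anisidine 2. Over 7 NK and cytotoxic markers, 6 were below 0, 3 were lower without overlap (Nkg7, Klrd1 and Prf1, against 8.88% of all genes), the median was -0.29 and the summed signal was 1.62 to 1.67 against 1.10 to 1.36. Ncr1, the receptor that defines NK cells, was not well above background. The 3 B cell markers tested had a median of -0.15 (summed signal 0.696 to 1.25 against 0.776 to 0.981) and the 8 macrophage and dendritic markers of -0.060 (17.1 to 20.7 against 15.1 to 23.3).

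Of 4 genes of leukocytes in general, Cd52 was called higher (2.12, limma adjusted p = 0.038), where 0.0354% of all genes were. Ptprc (-0.20), Laptm5 (-0.10) and Coro1a (0.15) were not called. The median over the 4 was 0.022, with a summed signal of 14.8 to 16.5 against 13.7 to 20.1. Erythroid markers were higher without overlap in 7 of 7 (against 9.55% of all genes), with 4 called (against 0.0354%) and a median of 2.13 (summed signal 514 to 715 against 1070 to 1290). No tested marker had a signal of 0 on any array, but the filter on dim probes had left little room for that. The part of these cells in the interferon values was not tested, and in bulk tissue fewer cells of a type and less RNA per cell cannot be told apart.

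Other ways of processing the arrays left the members without a call. No member passed the threshold under any of 16 alternatives, the smallest adjusted p being 0.115. The type I antiviral median stayed below that of all genes, at -0.35 with the mean of all retained probes and at -0.090 within the control slide. The alternatives are not separate checks of it. The variance model and the replicate number as a block leave the changes as they are. Slide as a block gave the same medians as the control slide alone, and the value table holds the same scaled signals.

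**Figure D5:**
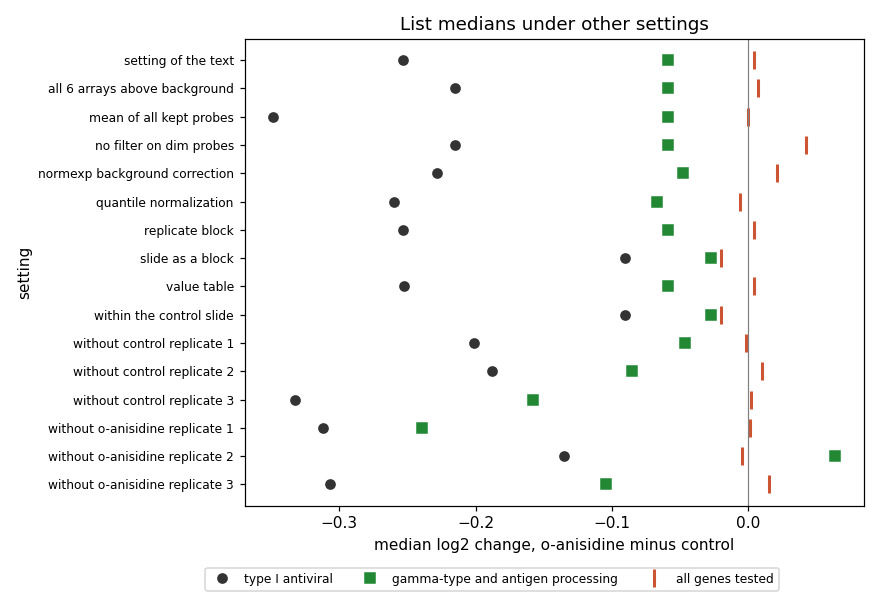
Median log2 change (o-anisidine minus control) of the type I antiviral genes, of the gamma-type and antigen processing genes together, and of all genes tested, under each processing setting or with 1 array left out. The type I antiviral median ranges from -0.35 to -0.090, and the gamma-type and antigen processing median is above 0 only without o-anisidine 2, at 0.064.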

How the data were processed

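Each array's file holds the scanner's processed signal, an intensity per probe that the authors deposited from Agilent Feature Extraction 10.7.1.1, per the file headers. The deposited value table, a ratio of that intensity to the array's 75th percentile (column medians 0.104 to 0.108), served as an alternative. Its columns match the scanner files of the same group under other replicate numbers, and which numbering is right is unknown. Signals were taken to log2 and each array's own 75th percentile (61657 non-control probes) was subtracted. A probe was retained where all 3 arrays of the controls, or all 3 of o-anisidine, had it well above background and none of the 6 carried an outlier flag (16 probes did), which left 42036. Accessions were named through RefSeq GRCr8 (27460 probes, 15284 symbols, with 34197 keeping the array's identifier), and the brightest retained probe stood for a gene. limma 3.58.1 in R 4.3.3 (lmFit, eBayes, two-sided, Benjamini-Hochberg over 31087 genes, threshold 0.05) compared 3 with 3 arrays. It was also run on simulated data with independent noise and no slide effect, which cannot show how it behaves with these slides. Members and lists were chosen with earlier results of these data known. Values on every array are given for members without overlap, the 10 with the smallest p, the 5 with the largest change, and the highest and lowest mean signal. Other pathway genes are named for the smallest p or largest change of their list or for no overlap. The class I genes, the class II genes with overlap and Ciita were added after their values were seen. Some genes of these lists are not reported here. Alternatives were normexp (median signal and local background, offset 50), quantile normalization, no filter, a filter over all 6 arrays, the mean of probes, the value table, a trended robust variance, slide or replicate number as a block, and each array left out. Counts of members without overlap under these were added after seeing the data.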

Additional observations from a re-analysis of the deposited data

How the results depend on the processing

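Of 479 values of single members under 16 alternatives, 443 kept their direction, 36 did not, and 0 passed the threshold, and 20 members kept their direction under every alternative that measured them. Part of the 443 could not change, since the replicate block and the variance model leave every log2 change as it is. The filters change a value only where they change the probe chosen, and slide as a block gave the same values as the control slide alone. The 10 members that did not keep their direction had log2 changes between -0.094 and 0.018 in the text, apart from Oasl at -0.35. With normexp, Cxcl10 was 0.087, Irf8 0.043, Oas2 0.0013, Psmb8 0.011 and Stat2 0.011. With slide as a block, and equally within the control slide, Eif2ak2 was 0.015, Ifih1 0.14, Irf8 0.083, Psmb8 0.062 and Stat2 0.026. Eif2ak2 was 0.0012 with quantile normalization and 0.045 with the mean of probes. Leaving out 1 array at a time gave ranges of -0.29 to 0.27 for Cxcl10, -0.045 to 0.058 for Eif2ak2, -0.25 to 0.076 for Ifih1, -0.19 to 0.20 for Irf8, -0.19 to 0.023 for Oas2, -0.91 to 0.078 for Oasl, -0.15 to 0.15 for Psmb8, -0.17 to 0.012 for Psmb9, -0.11 to 0.038 for Stat2 and -0.15 to 0.12 for Tap1. Members higher without overlap, 2 in the text, numbered 1 with normexp (all genes 11.6%) and 1 with quantile normalization (9.11%), and 2 to 4 with 1 array left out (13.2% to 20.2%). Members lower without overlap, 5 in the text, numbered 8 with the mean of probes (all genes 9.31%), 9 of 30 within the control slide (31.7%) and 5 to 16 with 1 array left out (12.7% to 14.9%). Over all genes, 19 passed the threshold in the text, 11 without a filter, 86 with normexp (68 higher, 18 lower), 120 with the trended robust variance (91 higher, 29 lower), 3 with slide as a block, 2 within the control slide and 3 to 21 with 1 array left out. With the replicate number as a block 1 gene passed and no member did. Same-numbered arrays shared little (correlation of deviations 0.020, 0.077 and 0.012), so the numbers give no pairing. The cause of these shifts was not tested. With o-anisidine 1 and 2 on a slide of their own, 1 treated array alone shares a slide with controls.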
